A study of Mus musculus with 12 samples.

Results

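Creatine kinases and the enzymes that cycle adenine nucleotides keep ATP steady in muscle. Creatine kinases move phosphate between ATP and creatine, so that phosphocreatine serves as a store that refills ATP during contraction, while adenylate kinase rebuilds ATP from ADP and leaves AMP. In the purine nucleotide cycle AMP deaminase turns AMP into IMP, and adenylosuccinate synthase and lyase turn IMP back into AMP. Muscle uses its own forms of several of these enzymes. The 10 genes described here were picked by name for these roles, with earlier results of these data known, out of 26967 genes listed in the deposited tables. They are Ckm, Ckb, Ckmt1 and Ckmt2 (creatine kinases), Gatm (first step of creatine synthesis), Slc6a8 (creatine transporter), Ak1 (adenylate kinase), Ampd1 and Ampd3 (AMP deaminases) and Adssl1 (muscle form of adenylosuccinate synthase). Of these, 8 were listed at both days, Ckmt1 only before differentiation and Ckmt2 only after it.

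RNA was sequenced from C2C12 cells, a mouse myoblast line that fuses into myotubes when serum is reduced. WT cells and cells homozygous for a K176R knock-in of PGAM2, the muscle form of the glycolytic enzyme phosphoglycerate mutase, were collected undifferentiated in medium with fetal bovine serum (d0) and at day 4 in medium with horse serum (d4). The 4 groups, WT d0, mutant d0, WT d4 and mutant d4, hold 3 libraries each by their labels. The methods text names fewer biological replicates per condition than that, while a figure legend on RNA sequencing of d0 and d4 cells gives 3 per group. The libraries of a group may thus not all be independent. All mutant cells stem from 1 homozygous C2C12 clone, so an effect of K176R and a property of that clone cannot be told apart.

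Each library held 16098407 to 21412560 reads (median 19676001). Since separate cultures are not described beyond the word biological, the spread behind each p-value is that between libraries and may be technical. Pgam2 itself, in which the mutation lies, was at 2.71 to 3.15 FPKM (fragments scaled by gene length and library, as deposited) in WT d0, 3.97 to 6.76 in mutant d0, 122.0 to 132.1 in WT d4 and 10.3 to 10.9 in mutant d4 libraries. The labelled cell type showed its markers, since 10 myoblast and myotube markers summed to 438 to 551 FPKM in WT d0, 405 to 521 in mutant d0, 7072 to 7386 in WT d4 and 1916 to 2055 in mutant d4. Des made up most of the sums at d0. Of the 10 markers, 9 had a mean of at least 1 FPKM in WT d0, 6 in mutant d0, 10 in WT d4 and 8 in mutant d4. At d0 Myog was at means of 22.1 FPKM in WT and 0.558 in mutant cells, and in mutant cells Pax7 was near 0 at both days, with means of 0.00632 and 0.0873 FPKM. Of the lists for other cells, Snap25, Gfap, Ptprc, Pecam1, Cdh5 and Fabp4 had group means from 0 to 0.0521 FPKM, but other genes of the same lists were expressed. Group means ran from 40.0 to 121.1 FPKM for Tubb3, from 3.75 to 9.91 for Pparg and from 0.824 to 4.82 for Cd68. The epithelial Krt19 was at 32.0 FPKM in WT d0, 105.1 in mutant d0, 7.15 in WT d4 and 4.36 in mutant d4 libraries, and the part of such cells in the results was not tested. In mutant d0 replicate 3, the small nuclear RNA Rn7sk reached 225.9 CPM (counts per library scaled to a common total after TMM normalization, which evens out composition), far above every other library. Counts of members called are therefore also given without this library, as are the members' log2 fold changes at d0 and between days in mutant cells. Isozyme shares, gene lists and similar genes are given with it only.

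WT cells raised most of these genes during differentiation, and mutant cells at d4 had less of most of them. Calls, by edgeR for reads and by limma for FPKM at d4, needed both an adjusted p (Benjamini-Hochberg) below 0.05 and a log2 fold change past 1 in size. From d0 to d4 in WT cells, 6 of the 8 genes tested rose and 0 fell, where 12.6% of 14336 genes rose and 13.0% fell (25.6% in all). In mutant cells 2 of 7 rose and 2 fell, against 17.3% and 17.1% of 13755 genes (34.4% in all). At d4, 6 of 9 were lower and 1 was higher in mutant than in WT cells, against 5.98% and 1.76% of 13252 genes (7.73% in all). At d0, 1 of 7 was lower and 0 were higher with edgeR, against 9.21% and 3.03% of 13920 genes (12.2% in all). With DESeq2, 1 of 9 was lower and 0 were higher, where 1299 of 23954 genes were lower and 456 higher. Of the genes not called at d0, Ckb, Slc6a8 and Adssl1 were higher and Ampd3 was lower at an unadjusted p under 0.05.

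Some of these genes entered a test only through the group where they are high, so that they had to differ. They are Ampd1 in the comparison of days in WT cells and in the test of the genotype's effect on that change, Ckmt2 and Ampd1 at d4, and Ckm at d0 and between days in mutant cells. Without them, 5 of 7 rose in WT cells, 1 of 6 rose and 2 fell in mutant cells, 4 of 7 were lower and 1 was higher in mutant cells at d4, and 0 of 6 were called at d0. The median log2 fold change of these remaining genes was 1.65 for WT d4 over d0, 0.16 for mutant d4 over d0, -1.002 for mutant over WT at d4 and 0.19 at d0, beside medians of -0.03, -0.01, 0.00 and -0.02 over all genes tested. In bulk RNA, fewer cells of a type and less RNA per cell cannot be told apart.

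Without mutant d0 replicate 3, the counts of members called were the same in each comparison that uses that library. The differences at d0 were then -4.95 for Ckm, 0.80 for Ckb, 0.18 for Slc6a8, 0.18 for Gatm, 0.17 for Ak1, -0.54 for Ampd3 and 0.54 for Adssl1. The changes from d0 to d4 in mutant cells were 7.83 for Ckm, -1.27 for Ckb, -1.09 for Slc6a8, 0.60 for Gatm, 0.54 for Ak1 and 2.13 for Ampd3. For Adssl1 the change was -0.21, with an adjusted p of 0.0839 with edgeR in place of 0.0282.

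**Figure D1:**
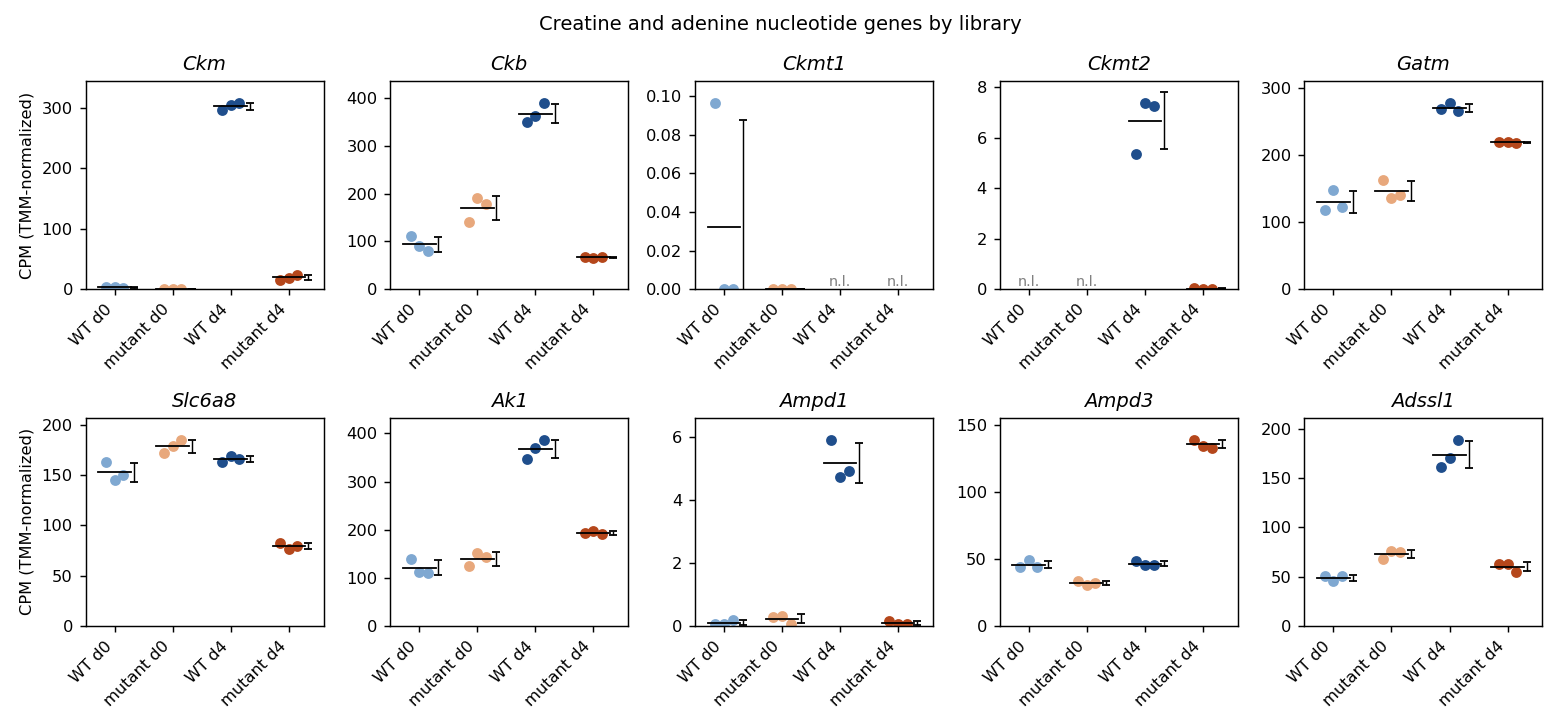
Level of each of the 10 genes in every library, in CPM after TMM normalization (y axis, from 0, own scale per gene), by genotype and day (x axis). Points are libraries, horizontal lines are group means, error bars beside them are 1 SD (n = 3), and n.l. marks genes not listed at that day. Ckm, Ckmt2 and Ampd1 stand up in WT d4 libraries, while the Ampd3 libraries of mutant d4 lie above those of the other 3 groups.

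Of the members tested, the muscle creatine kinase Ckm had the largest fitted difference between genotypes at d0 and, on the log2(FPKM + 1) scale, at d4. Its rank at d0 is a description, since Ckm passed the filter there only through WT libraries. Ckm (ENSMUSG00000030399) lies on the plus strand of chromosome 7, from 19404776 to 19422841 in mm10. It overlaps an annotated gene on the other strand, A930016O22Rik, which was not tested in any comparison. Its level in WT d0 libraries was 1.19, 0.936 and 0.616 FPKM, and in mutant d0 libraries it was 0.0191, 0.0361 and 0.0198 FPKM. The mutant values rest on 4 reads in all, against 173 reads in WT cells. At d4 the WT libraries held 100.6, 102.6 and 103.5 FPKM and the mutant libraries 5.38, 6.46 and 8.12 FPKM. The genotypes did not overlap at either day, and the mutant cells after differentiation stood above WT cells before it, but well below WT cells after it.

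In mutant cells Ckm was lower by a log2 fold change of -5.08 (SE 0.48) at d0 with edgeR (adjusted p = 7.04e-06). Ckm entered this test only through WT d0 libraries, so it had to differ and the p-value is a description. The ratio of reads per library total, WT over mutant, was 37.7 with a 95% counting interval of 14.4 to 139.8. At d4 it was -3.77 (SE 0.12) on the log2(FPKM + 1) scale with limma (adjusted p = 3.38e-07), a 15.4-fold lower mean FPKM, and 0.23% of the genes tested had a lower value. From d0 to d4 Ckm rose in both genotypes, by 6.87 (SE 0.14) on the log2 scale in WT and by 7.97 (SE 0.32) in mutant cells with edgeR. In mutant cells Ckm entered the test of days only through d4 libraries, so that rise had to appear. The difference of these changes, mutant minus WT, was 1.09 (SE 0.71, adjusted p = 0.224) and was not called. The fold rise from d0 to d4 was not shown to differ between genotypes, while the level at d4 did.

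The bases before the start of Ckm are shown because of these differences. They come from RefSeq's promoter set (GRCm38.p6), in the direction of the gene, at chr7:19410844-19411024. Capitals mark a match to the E-box CANNTG, the letters bound by myogenic bHLH factors, here in its form CAGCTG. The stretch begins 250 bases before the RefSeq start, ends where another annotated transcript of Ckm starts, and lies within the gene's listed span between annotated exons.
Ckm: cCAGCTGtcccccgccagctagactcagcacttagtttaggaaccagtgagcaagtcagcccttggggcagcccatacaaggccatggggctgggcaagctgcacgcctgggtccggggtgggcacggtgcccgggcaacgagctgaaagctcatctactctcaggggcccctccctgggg

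The brain-type creatine kinase Ckb showed the opposite course in the 2 genotypes. Ckb (ENSMUSG00000001270; chromosome 12, 111669361 to 111672338, minus strand) overlaps no other annotated gene. At d0 it was at 38.2, 31.5 and 27.3 FPKM in WT libraries and at 48.0, 65.7 and 61.5 FPKM in mutant libraries. At d4 the WT libraries held 120.3, 122.9 and 132.1 FPKM and the mutant libraries 22.9, 22.3 and 23.3 FPKM. Mutant cells were thus above WT cells in every library at d0 and below them in every library at d4.

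With edgeR, Ckb rose by 2.02 (SE 0.10) on the log2 scale from d0 to d4 in WT cells (adjusted p = 6.14e-11), and in mutant cells it fell by 1.30 (SE 0.09, adjusted p = 2.13e-09). The changes differed by -3.32 (SE 0.16, adjusted p = 3.15e-12). At d4 the mutant level was lower by a log2 fold change of -2.40 (SE 0.04, limma, adjusted p = 3.1e-08), a 5.49-fold lower mean FPKM. At d0 the difference was 0.83 (SE 0.14, edgeR, adjusted p = 0.000566), under the fold threshold. Ckb is also a gene of brain and smooth muscle, and the summed level of 8 neuron and glia markers, of which 6 were in the tables, ran from 39.2 to 48.4 FPKM in WT d4 and from 53.4 to 54.5 FPKM in mutant d4 libraries. These sums consisted almost wholly of Tubb3 and Map2. The sum of 8 fibroblast and smooth muscle markers, mostly Acta2, was 844 to 890 FPKM in WT d4 and 466 to 479 in mutant d4. At d0 it was 450 to 604 FPKM in WT and 182 to 223 in mutant libraries, where Ckb was higher in mutant cells. The neuron and glia sum at d0 was 31.2 to 66.6 FPKM in WT and 103.9 to 144.2 in mutant libraries. The part of these cells in the Ckb levels was not tested.

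The bases before the start of Ckb are shown for contrast with those of the other creatine kinases (RefSeq, GRCm38.p6, chr12:111672339-111672588, in the direction of the gene). Capitals mark a match to the MEF2 motif that begins 29 bases before the start, and the same letters hold TATAAA, the core of a TATA box.
Ckb: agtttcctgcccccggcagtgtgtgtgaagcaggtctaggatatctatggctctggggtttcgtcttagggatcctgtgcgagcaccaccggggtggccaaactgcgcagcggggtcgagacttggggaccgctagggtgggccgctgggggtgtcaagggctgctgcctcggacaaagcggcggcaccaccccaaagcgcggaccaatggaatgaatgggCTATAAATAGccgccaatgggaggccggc

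Of the mitochondrial creatine kinases, the sarcomeric form Ckmt2 was read in WT d4 libraries and almost nowhere else. Ckmt2 (ENSMUSG00000021622) spans 91853387 to 91876885 of chromosome 13, minus strand. In WT d4 libraries it was at 3.59, 4.88 and 4.81 FPKM, from 102, 141 and 113 reads. Mutant d4 libraries held 0.0333, 0 and 0 FPKM, from 1 read in all. The ratio of reads per library total was 360 in favour of WT cells, with a 95% counting interval from 64.1 to 14247. On the log2(FPKM + 1) scale, which understates changes of low genes, the difference was -2.41 (SE 0.11, limma, adjusted p = 2.72e-06). Ckmt2 entered this test only through WT d4 libraries, so it had to differ and the p-value is a description. The gene is not listed at d0, where tables hold genes of 2 or more reads over the day, so it had at most 1 read there. Against a floor of 3 reads over the WT d0 group, WT d4 libraries were at least 136-fold higher. The ubiquitous form Ckmt1 (ENSMUSG00000000308) had 2 reads in WT d0 replicate 1 and 0 in the other 5 d0 libraries, and is not listed at d4, so no difference was detectable at this depth.

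The bases before the start of Ckmt2 are shown because they hold 4 E-boxes (capitals), 1 of them CAGCTG at 107 bases before the start (RefSeq, GRCm38.p6, chr13:91876886-91877135, in the direction of the gene).
Ckmt2: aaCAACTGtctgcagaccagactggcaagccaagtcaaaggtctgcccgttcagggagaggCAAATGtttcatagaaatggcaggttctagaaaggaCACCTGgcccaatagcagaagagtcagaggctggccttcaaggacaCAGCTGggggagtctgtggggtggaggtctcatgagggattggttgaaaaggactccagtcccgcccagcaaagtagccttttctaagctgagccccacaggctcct

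In the 250 bases before the start, an E-box CANNTG, which reads alike on both strands and includes CAGCTG, was present in 66.2% of 32851 RefSeq mouse promoters, CAGCTG in 13.0%, the MEF2 motif in 2.92% and the CArG motif, bound by serum response factor, in 1.47%. All were searched on both strands. RefSeq's set held 14 starts for 8 of the 10 genes, and Ampd1 and Slc6a8 were not among them. Ckm had 1 E-box, Ckb and Ckmt1 had 0, Gatm had 1 and Adssl1 had 2. Of the 4 starts of Ak1, 2 had a CAGCTG, and 1 of the 3 starts of Ampd3 had a CArG match, at 112 bases before it. A match is a description of letters and not a binding site.

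The makeup of creatine kinase transcripts shifted with day and genotype. Of the summed FPKM of the 4 creatine kinases, Ckm made up 2.70% ± 0.44 (SD, n = 3) in WT d0, 0.0422% ± 0.012 in mutant d0, 44.1% ± 0.95 in WT d4 and 22.5% ± 3.4 in mutant d4 libraries. Ckb made up nearly all of the rest, with 54.0% in WT d4 and 77.5% in mutant d4. Ckmt2 reached 1.91% in WT d4. The sum itself was 224.6 to 240.5 FPKM in WT d4 and 28.3 to 31.4 FPKM in mutant d4 libraries, and 27.9 to 39.4 FPKM in WT d0 and 48.0 to 65.8 in mutant d0 libraries. Mutant cells at d4 thus had less creatine kinase RNA in sum than WT cells of the same day, and most of what they had was the brain type. The authors scaled FPKM of each day separately, so sums of different days carry that scaling.

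**Figure D2:**
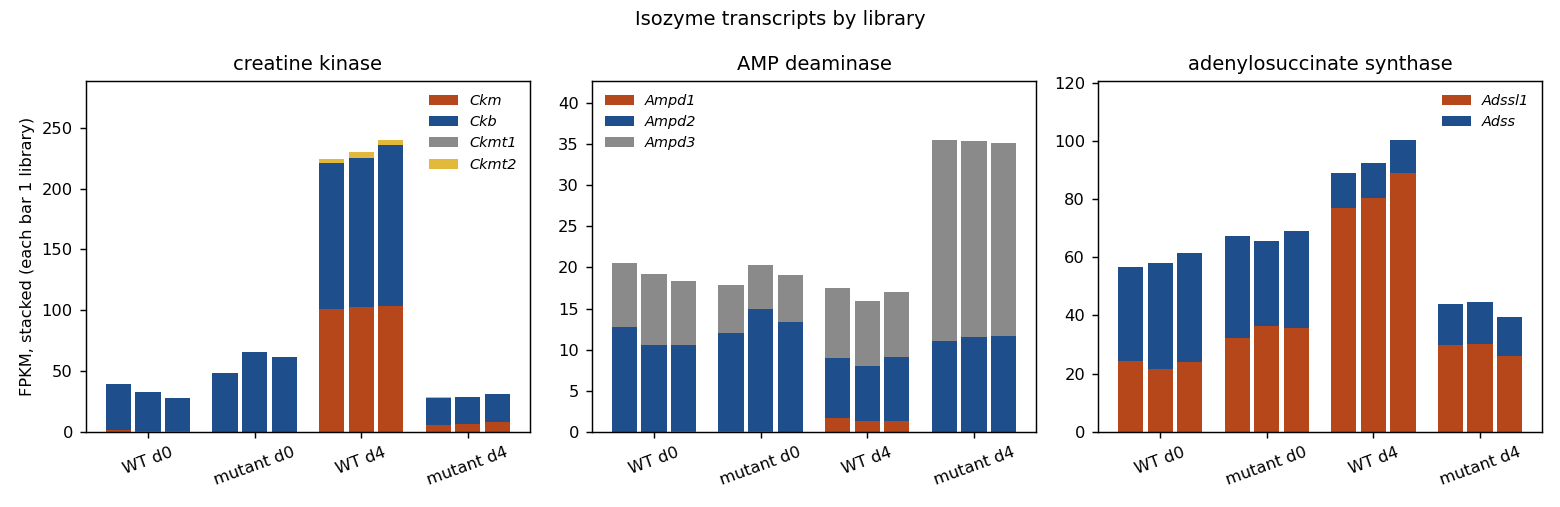
FPKM of the isozymes of creatine kinase, AMP deaminase and adenylosuccinate synthase, stacked (y axis, from 0), with 1 bar per library in 4 groups of 3 (x axis). Creatine kinase sums are 224.6 to 240.5 FPKM in WT d4 and 28.3 to 31.4 in mutant d4 bars, and Ampd3 makes up most of the AMP deaminase bars of mutant d4 only.

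Creatine is supplied by synthesis and by uptake. Gatm (ENSMUSG00000027199; chromosome 2, 122594467 to 122611303, minus strand), which makes the precursor guanidinoacetate, ran from 39.3 to 49.4 FPKM in WT d0 and from 45.3 to 53.6 FPKM in mutant d0 libraries. At d4 it ran from 87.2 to 90.9 FPKM in WT and from 72.5 to 73.0 FPKM in mutant libraries. The groups overlapped at d0 and lay apart at d4. Gatm rose in WT cells by 1.11 (SE 0.09) on the log2 scale (edgeR, adjusted p = 3.34e-08), and the value in mutant cells was 0.64 (SE 0.08, adjusted p = 9.31e-07), under the fold threshold. At d4 the mutant level differed by -0.29 (SE 0.03, limma, adjusted p = 0.000175), again under it. Gamt, which completes creatine by methylation and is the only other gene of the synthesis list, rose in WT cells by 1.05 (SE 0.13) and in mutant cells by 1.69 (SE 0.10). Its mean at d4 was 50.3 FPKM in WT and 73.6 FPKM in mutant libraries, a difference of 0.56 (SE 0.13, limma, adjusted p = 0.00886) that was not called.

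The creatine transporter Slc6a8 fell in mutant cells and was not called in WT cells. Slc6a8 (ENSMUSG00000019558) lies on the plus strand of the X chromosome, from 73673150 to 73682502. WT libraries held 31.3, 27.7 and 28.8 FPKM at d0 and 31.0, 32.0 and 31.3 FPKM at d4. Mutant libraries held 32.4, 34.4 and 35.6 FPKM at d0 and 15.7, 14.7 and 15.2 FPKM at d4. Only the mutant d4 libraries lay far from the others. At d0 every mutant library was above the WT libraries, with a difference of 0.20 (SE 0.09, edgeR, adjusted p = 0.0775) that was not called. The change from d0 to d4 was 0.17 (SE 0.08, edgeR, adjusted p = 0.0627) in WT and -1.11 (SE 0.07, adjusted p = 3.18e-10) in mutant cells, and the changes differed by -1.29 (SE 0.10, adjusted p = 2.86e-09). At d4 the mutant level was 2.07-fold lower. This difference, -1.002 (SE 0.04, limma, adjusted p = 1.12e-06), lies just inside the fold threshold and left the call at -0.99 without WT d4 replicate 2, at -0.98 without mutant d4 replicate 2, and at -0.93 with quantile normalization.

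Adenylate kinase 1, the main cytosolic form in muscle, rose in WT cells, and its change in mutant cells was smaller. Ak1 (ENSMUSG00000026817; chromosome 2, 32621758 to 32635058, plus strand) was at 53.4, 43.5 and 42.6 FPKM in WT d0 and at 46.9, 58.6 and 55.3 FPKM in mutant d0 libraries, which overlapped. At d4 it was at 133.1, 139.9 and 146.4 FPKM in WT and at 73.9, 75.6 and 73.2 FPKM in mutant libraries, which did not. On the log2 scale Ak1 rose by 1.65 (SE 0.09, edgeR, adjusted p = 1.41e-10) in WT cells, and the change in mutant cells was 0.53 (SE 0.08, adjusted p = 9.98e-06), under the threshold. The difference of the changes, -1.13 (SE 0.13, adjusted p = 5.83e-07), was called. At d4 itself the difference between genotypes was -0.90 (SE 0.04, limma, adjusted p = 2.2e-06), a 1.88-fold lower mean FPKM just outside the fold threshold. Ak3, another adenylate kinase, was at means of 22.1 to 27.6 FPKM over the 4 groups and was not called in any comparison.

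Among the AMP deaminases, mutant cells at d4 had few reads of the muscle form and more of the form first known from red cells. Ampd1 (ENSMUSG00000070385; chromosome 3, 103074014 to 103099720, plus strand), the muscle form, had 6 reads over the WT d0 libraries and 12 over the mutant d0 libraries. At d4 WT libraries held 1.65, 1.30 and 1.36 FPKM, from 112, 90 and 76 reads. Mutant d4 libraries held 0.0418, 0.0130 and 0.017 FPKM, from 3, 1 and 1 reads. Only WT d4 libraries had more than a handful of reads. WT cells at d4 had 56.2 times the reads per library total of mutant cells (95% counting interval 23.8 to 174.4) and 52.9 times those of WT d0 cells (24.0 to 145.4). Ampd1 rose in WT cells by 5.77 (SE 0.42, edgeR, adjusted p = 4.89e-09) on the log2 scale and was lower in mutant d4 cells by -1.25 (SE 0.10, limma, adjusted p = 4.5e-05) on the log2(FPKM + 1) scale. Ampd1 entered both tests only through WT d4 libraries, so it had to differ and the p-values are a description. In mutant cells the reads of d4 over d0 had a ratio of 0.410 with an interval of 0.113 to 1.25, which includes 1.

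Ampd3 was the only member that was higher in mutant cells at d4. Ampd3 (ENSMUSG00000005686) lies on the plus strand of chromosome 7, from 110768206 to 110812405. WT libraries held 7.84, 8.64 and 7.82 FPKM at d0 and 8.58, 7.92 and 7.92 FPKM at d4. Mutant libraries held 5.86, 5.42 and 5.72 FPKM at d0 and 24.5, 23.8 and 23.6 FPKM at d4. WT levels overlapped between the days, while the mutant libraries were the lowest of all at d0 and the highest of all at d4. The change in WT cells was 0.07 (SE 0.09, edgeR, adjusted p = 0.525), mutant cells rose by 2.14 (SE 0.08, adjusted p = 2.32e-13), and the changes differed by 2.06 (SE 0.11, adjusted p = 1.45e-11). At d4 the mutant mean FPKM was 2.94-fold higher, with a log2 fold change of 1.45 (SE 0.05, limma, adjusted p = 3.75e-07), above 99.48% of the genes tested. At d0 the difference was -0.54 (SE 0.10, edgeR, adjusted p = 0.00105), under the fold threshold. Ampd3 overlaps Rnf141 on the other strand, and whether the counting used strand is not stated in the sources used here. Rnf141 itself was not called in any of the 5 comparisons, with -0.13 (SE 0.06) between genotypes at d4 and -0.53 (SE 0.10) between days in mutant cells. Ckmt1 and Ckmt2 also overlap annotated genes on the other strand, Strc and 1700119I11Rik. Ampd1 overlaps Gm23820 and Gm43063 on its own strand.

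The widely expressed Ampd2 was at means of 11.2 FPKM in WT d0, 13.4 in mutant d0, 7.26 in WT d4 and 11.4 in mutant d4 libraries and was not called in any comparison. Of the summed FPKM of the AMP deaminases, Ampd1 made up 8.51% ± 0.78 (SD, n = 3) in WT d4 and 0.0676% ± 0.044 in mutant d4 libraries, and Ampd3 48.4% ± 1.7 and 67.8% ± 1.1. The sum was 15.9 to 17.5 FPKM in WT d4 and 35.2 to 35.6 FPKM in mutant d4 libraries, so the total of AMP deaminase RNA was higher in mutant cells although its muscle form was nearly absent.

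The muscle form of adenylosuccinate synthase, which returns IMP toward AMP, had the same order of groups at each day as Ckb. Adssl1 (ENSMUSG00000011148; chromosome 12, 112620045 to 112641360, plus strand) was at 24.2, 21.7 and 24.0 FPKM in WT d0 and at 32.1, 36.5 and 35.8 FPKM in mutant d0 libraries. At d4 it was at 77.0, 80.4 and 88.8 FPKM in WT and at 30.0, 30.1 and 25.99 FPKM in mutant libraries. As with Ckb, every mutant library was above the WT libraries at d0 and below them at d4. Adssl1 rose by 1.88 (SE 0.09, edgeR, adjusted p = 1.47e-11) in WT cells, while the change in mutant cells was -0.22 (SE 0.08, adjusted p = 0.0282), under the threshold. The changes differed by -2.11 (SE 0.12, adjusted p = 4.31e-11). At d4 the mutant mean FPKM was 2.86-fold lower, with a log2 fold change of -1.49 (SE 0.07, limma, adjusted p = 3.39e-06), and at d0 the difference was 0.56 (SE 0.09, edgeR, adjusted p = 0.00063), under the fold threshold.

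Adss, the form found in most tissues, fell in both genotypes, by 1.52 (SE 0.09) in WT and 1.16 (SE 0.08) in mutant cells on the log2 scale (edgeR). Adssl1 thus made up 39.8% ± 2.8 (SD, n = 3) of the summed FPKM of both in WT d0, 51.7% ± 4.1 in mutant d0, 87.4% ± 0.89 in WT d4 and 67.2% ± 1.3 in mutant d4 libraries. Adsl, the lyase that completes the cycle, was at 14.6 FPKM in WT d4 and 13.6 FPKM in mutant d4 and was not called in any comparison. Of the 3 purine nucleotide cycle genes that are not among the 10, 1 fell and 0 rose in each genotype from d0 to d4. Between genotypes 0 were called at either day by edgeR at d0, limma at d4 or DESeq2. At an unadjusted p under 0.05, 1 was higher in mutant cells at d0 and 2 at d4. Over all genes tested, 13.0% fell in WT and 17.1% in mutant cells. Between genotypes, 12.2% of all genes were called at d0 and 7.73% at d4. With 3 genes the counts cannot be set apart from such shares.

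**Figure D3:**
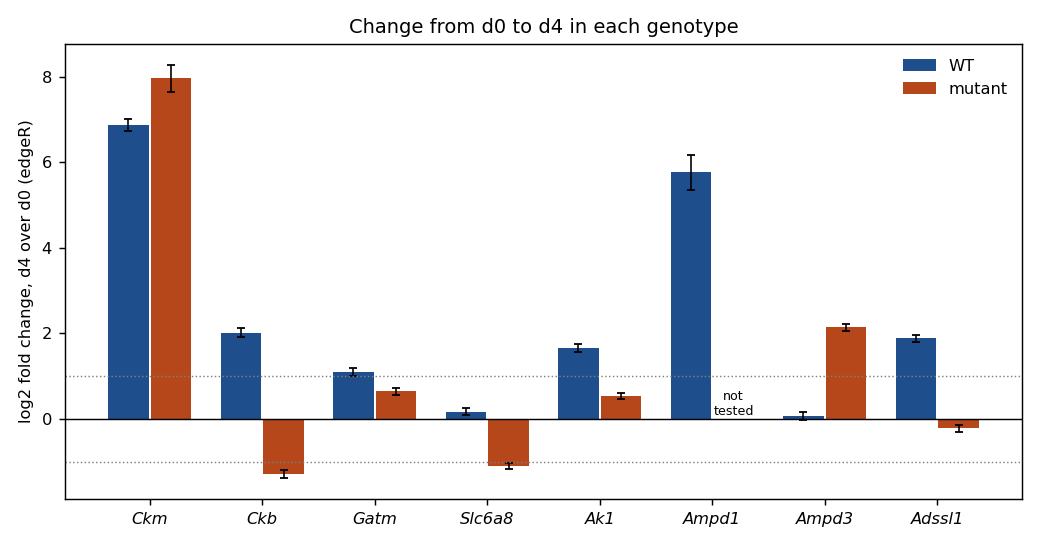
log2 fold change from d0 to d4 (y axis, edgeR on reads, error bars 1 SE, 3 libraries per group) in WT and mutant cells for the 8 genes listed at both days (x axis). Ampd1 was not tested in mutant cells and has no bar there. Dotted lines mark a log2 fold change of 1 in each direction. Ckb goes from 2.02 in WT to -1.30 in mutant cells and Ampd3 from 0.07 to 2.14, whereas Ckm rises in both.

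The test of whether the change from d0 to d4 differed between genotypes was run on all 12 libraries with edgeR. Of the 8 genes listed at both days, 5 had a lower change in mutant cells (Ckb, Slc6a8, Ak1, Ampd1 and Adssl1) and 1 a higher change (Ampd3), where 7.95% and 8.68% of 15114 genes were called (16.6% in all). Ampd1 could be tested only through its reads in WT d4, so its sign is a description, and without it 4 of 7 had a lower change. The value of Gatm was -0.48 (SE 0.12, adjusted p = 0.0033), under the threshold, and that of Ckm was 1.09 as given above. Ckm was lower in mutant cells at both days, whereas Ckb, Adssl1 and Ampd3 had the opposite order of genotypes at d0 and at d4. The libraries of Slc6a8 had opposite orders too, with a small difference at d0. Beside the members that were lower in mutant cells at d4, 9 of the 10 myoblast and myotube markers had a lower mean there. Myog was at means of 844 FPKM in WT and 76.5 in mutant, Mb at 305 and 2.83, and Cav3 at 43.6 and 0.936, whereas Myod1 was at 119.5 and 94.6, Des at 1161 and 919.8, and Myf5, the exception, at 13.6 and 35.5. Their part in the results was not tested.

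The genes with the pattern most like that of Ckm were sought among 11248 genes, by the root mean square difference of log2(CPM + 1), centred per gene, over the 12 libraries. For Ckm they were Myom3 (0.2502), Trim72 (0.2505), Lmod2 (0.278), Klhl41 (0.327) and Lmod3 (0.375). At means of 311 CPM in WT d4 and 19.7 CPM in mutant d4 libraries, Myom3 came close to the 302 and 19.5 CPM of Ckm. For Ckb they were March11 (0.192; named from its gene ID, since the tables give a date in place of its symbol), Adamts14 (0.236), Gys1 (0.281), Klhl30 (0.306) and Cryba4 (0.310). Klhl30 had means of 131.8 and 242.9 CPM in WT and mutant d0 and of 391.7 and 128.0 CPM at d4, beside 93.7, 169.8, 367.3 and 66.3 CPM for Ckb.

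**Figure D4:**
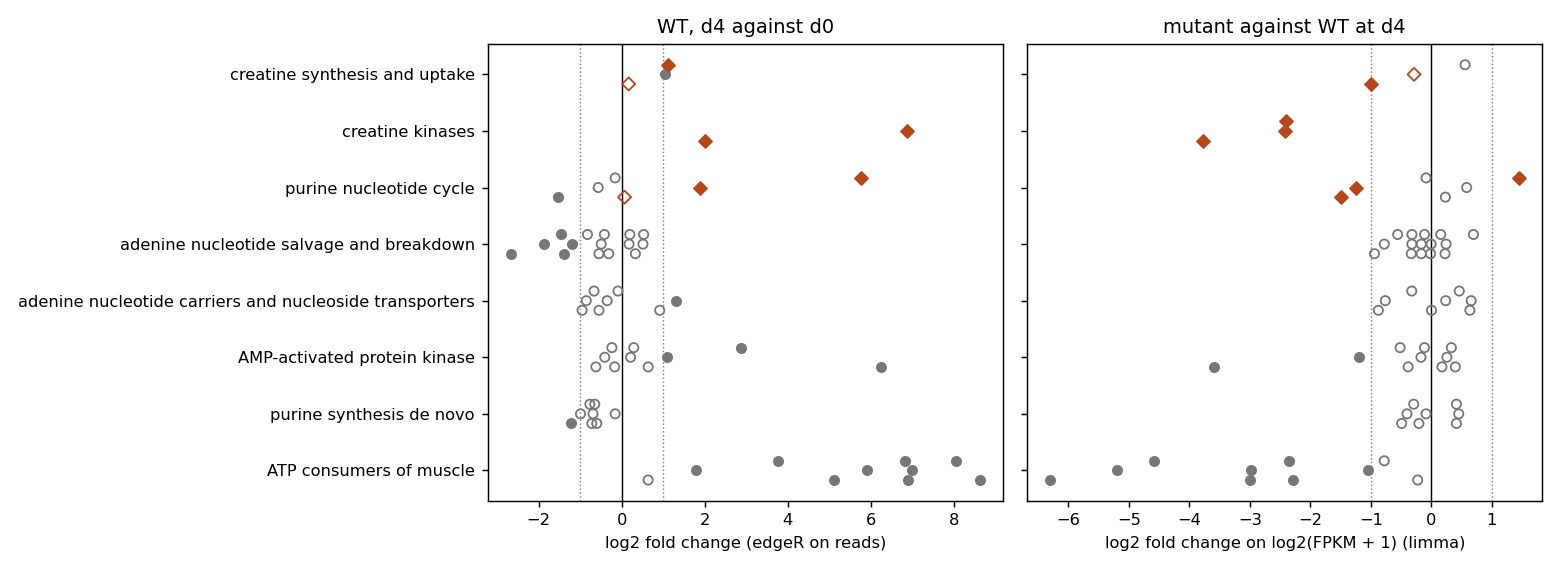
log2 fold change (x axis) of each tested gene of 8 lists around creatine and adenine nucleotides (y axis), for WT cells at d4 against d0 (left, edgeR) and mutant against WT cells at d4 (right, limma on log2(FPKM + 1)). Diamonds are members of those lists, circles the other genes of each list, filled symbols are called, and dotted lines mark 1 in each direction. The diamonds and the ATP consumers of muscle spread out, while most circles of the salvage, transport and synthesis lists lie within the dotted lines.

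The ATP consumers of muscle are a list of 10 myosin heavy chains and ion pumps. Of these, 9 rose in WT cells and 8 were lower in mutant cells at d4, with medians of 6.36 and -2.66. Over all genes tested, 12.6% rose in WT cells and 5.98% were lower in mutant cells at d4. At d0, 6 of 9 tested were lower in mutant cells (edgeR), with a median of -4.93, where 9.21% of all genes were lower. The counts between genotypes include genes near 0 in mutant cells. Such genes could be tested only through WT libraries, so they had to come out lower. Among them, Myh8 was at means of 0.00163 FPKM in mutant d0 and 0.0298 in mutant d4 libraries, and Myh4 at 0 and 0.0924. The list was not counted without such genes, so its counts and medians between genotypes are a description. Myh1, a fast myosin, was at 130.7 FPKM in WT d4 and 0.683 in mutant d4 libraries. Of the 10 genes around AMP-activated protein kinase, the sensor of the AMP that these enzymes make and remove, 3 rose in WT cells and 2 were lower in mutant cells at d4, namely the muscle subunit Prkag3 (43.2 FPKM in WT and 2.66 in mutant) and the catalytic Prkaa2 (1.76 and 0.201). Prkaa2 entered the test at d4 only through WT libraries, so it had to differ and its call is a description.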

How the data were processed

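RNA-seq of 12 libraries was analysed. The authors deposited counts per gene, not normalized, and FPKM, scaled by gene length and a divisor per library. Their notes name mm10 and DESeq2 1.20.0; which aligner and counter were run, and whether strand was used, is not stated in those sources. The 3 count columns of the WT d4 table equal the mutant d4 counts in all 24787 genes, so WT d4 reads were worked back from FPKM. All values came out whole within 0.01 reads (100% of genes), and the same step returned the deposited counts of the other 9 libraries.

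Groups follow the titles; a treatment tag follows genotype instead of day and was not used. Counts were compared with edgeR 4.0.16 (quasi-likelihood, TMM, filterByExpr) and d4 FPKM with limma 3.58.1 on log2(FPKM + 1), with at least 0.5 FPKM in 3 libraries. Days were compared over the 21774 genes listed at both. Alternatives were DESeq2 1.42.0, other normalization, filters and pseudocounts, all libraries in 1 fit, the replicate block and leaving out each library. R 4.3.3 was used. The members and lists were chosen with earlier results of these data known. Named genes are all 10 members, the creatine and purine nucleotide cycle lists, and in other lists up to 3 called genes with the largest change and the highest gene not called. A result of the adenylate kinase list is not reported here. Intervals and floors cover counting error only.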

Additional observations from a re-analysis of the deposited data

Results flagged for a closer look

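For 6 of the 8 genes tested, the change from d0 to d4 differed between mutant and WT cells by a test of the difference itself, the interaction of genotype and day in edgeR on all 12 libraries, which called 16.6% of 15114 genes. On the log2 scale, mutant minus WT, Ckb had -3.32, Adssl1 -2.11, Slc6a8 -1.29, Ak1 -1.13 and Ampd1 -7.02, and Ampd3 had 2.06. The value of Ampd1 is a fitted one that rests on 12 reads at d0 and 5 at d4 in mutant cells, and the gene could be tested only through its reads in WT d4, so its sign was given by the filter. With every library left out in turn, the calls of Ckb, Adssl1, Slc6a8, Ak1 and Ampd3 held. That of Ampd1 held too, but the filter had given its sign, so this lends it no weight.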

How the results depend on the processing

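Of 487 values of single members under alternatives, 481 kept their direction and side of the threshold, and 6 lost the call, all between genotypes at d4. With a pseudocount of 5, which shrinks low genes, Ckmt2 had -0.91, Slc6a8 -0.85 and Ampd1 -0.36, so 3 members were lower instead of 6. The other 3 are those of Slc6a8 given in the report. On reads, the d4 values of Ckmt2 and Ampd1 were -8.11 and -5.79 with edgeR and -8.47 and -5.90 with DESeq2. Over all genes at d4, 233 were higher and 792 lower; the counts were 497 and 1193 with a pseudocount of 0.1, 70 and 369 with a pseudocount of 5, 721 and 1537 with edgeR on reads, and 690 and 1760 with DESeq2 on reads. Leaving out 1 library gave 5 to 6 members lower at d4, and in the other comparisons left the member counts as they were. Replicate numbers did not pair the libraries: deviations of same-numbered libraries correlated between -0.73 and 0.12. At d0 some libraries of different numbers deviated together. Mutant replicate 2 and WT replicate 1 correlated at 0.71, and mutant replicate 1 and WT replicate 2 at 0.65. The replicate block follows the numbers and does not cover this, and its source was not tested. With the replicate block, 1 member was higher and 6 were lower at d4, as without it, and it changed no other member call. Ckm at d0 in mutant cells, Ampd1 outside WT d4 and Ckmt1 are at the limit of the depth.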

Other observations

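Some genes that salvage adenine nucleotides or take them apart fell during differentiation. Of the salvage and breakdown list, 15 of 17 genes were tested, and 0 rose and 5 fell from d0 to d4 in WT cells, with a median log2 fold change of -0.49 (edgeR), where 12.6% of all genes tested rose and 13.0% fell with a median of -0.03. At d4, 0 of 15 were called between genotypes (limma), with a median of -0.17, and edgeR and DESeq2 on reads also called 0. At an unadjusted p under 0.05, 2 were higher and 7 lower in mutant cells. Adenosine deaminase, Ada, fell by 2.66 (SE 0.26) in WT and by 2.56 (SE 0.25) in mutant cells. Adenine phosphoribosyltransferase, Aprt, fell by 1.46 (SE 0.10) and 2.13 (SE 0.10). Xanthine dehydrogenase, Xdh, fell by 1.86 (SE 0.11) in WT cells, while mutant cells had 0.43 (SE 0.10), and the changes differed by 2.28 (SE 0.14, adjusted p = 1.72e-10). Its mean FPKM was 7.40 in WT d0, 2.93 in mutant d0, 1.95 in WT d4 and 3.78 in mutant d4 libraries. Hprt, the highest of those not called, was at means of 44.6 to 82.4 FPKM.

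Of 8 genes of purine synthesis, 1 fell in WT cells, a share like that of all genes, and 5 fell in mutant cells, where 17.1% of all genes fell from d0 to d4, and 0 were called between genotypes at d4 by limma, edgeR or DESeq2, with 3 higher and 4 lower at an unadjusted p under 0.05. Pfas fell by 1.22 (SE 0.09) and 1.36 (SE 0.08) in WT and mutant cells. Of 8 carriers and nucleoside transporters tested, 1 rose in WT cells, also near the share of all genes, the adenosine transporter Slc29a1, by 1.32 (SE 0.08), which also rose in mutant cells by 1.43 (SE 0.08) from a lower level. Its mean FPKM was 47.3 in WT d0, 23.5 in mutant d0, 112.7 in WT d4 and 60.9 in mutant d4 libraries. The adenine nucleotide carrier Slc25a5 fell in mutant cells by 1.85 (SE 0.07) and had -0.66 (SE 0.09) in WT cells, a difference of -1.20 (SE 0.12, adjusted p = 1.36e-07) by edgeR. In the AMP-activated protein kinase list, Prkag3 rose by 6.24 (SE 0.12) in WT and 4.2 (SE 0.25) in mutant cells, and Prkab2 rose by 1.09 (SE 0.09) in WT cells. The upstream kinase Stk11 was at means of 34.1 to 47.9 FPKM and was not called.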
